A study of Homo sapiens with 3 samples.

Results

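The genes described here were 9 kinases of the stress-activated and adhesion pathways, measured as total expression in A549 cells with and without knockdown of the RNA helicase DDX24. They were chosen by gene name as MAP3K5, MAP2K4, MAP2K7, MAPK8, MAPK9, MAPK14, PTK2, PTK2B and SRC, and each name matched 1 gene, giving 9 of the 58735 genes in the count files. All 9 lay above a mean of 1 CPM, the count scaled to library size, as did 13984 genes in all. A549 is an established line of lung adenocarcinoma cells, grown here in F12K medium with fetal bovine serum. The study made stable lines with lentiviral pLKO.1 vectors under puromycin, and 1 RNA library was sequenced for each of 3 conditions, named here Control-sh, DDX24-sh1 and DDX24-sh2. The shRNA libraries carry separate hairpins against DDX24, and whether the control library carries the empty vector or a control hairpin is not known. The Control-sh counts summed to 17218884, those of DDX24-sh1 to 18337471 and those of DDX24-sh2 to 17847190.

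The stress-activated MAP kinases are switched on by a relay of kinases. A MAP3K such as MAP3K5 (ASK1), which responds to oxidative stress, phosphorylates the MAP2Ks MAP2K4 (MKK4) and MAP2K7 (MKK7), and these phosphorylate the JNKs MAPK8 (JNK1) and MAPK9 (JNK2), which act on JUN and other transcription factors; MAP2K4 can also act on the p38 kinase MAPK14. PTK2 (FAK) and its relative PTK2B (PYK2) are tyrosine kinases that relay integrin and, for PYK2, calcium signals, and both recruit SRC when they phosphorylate themselves. In all of them activity is set largely by phosphorylation, which RNA counts do not measure.

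The study tested splicing of MAPK8 and PTK2B after the knockdown, and counts summed over a gene do not separate transcripts. The alternative coding exons that such a sum merges are shown for the JNK genes, because exons of equal length that replace each other add the same length to a total. MAPK14 also has such a pair, of 80 bases each, which is not printed here. In GENCODE 29 (GRCh38), MAPK8 has a pair of mutually exclusive coding exons of 72 bases, or 24 codons, on the plus strand at chr10:48424088-48424159 and chr10:48424514-48424585. Of 7 complete coding MAPK8 transcripts, 2 hold the first and 3 hold the second. MAPK9 has a pair of the same length on the minus strand, in transcribed order chr5:180247855-180247926 and chr5:180247439-180247510, each held by 2 of 8 complete coding transcripts. They are given 5′ to 3′ in the transcribed direction, with capitals at the bases that differ between the exons of a pair.
MAPK8 first exon: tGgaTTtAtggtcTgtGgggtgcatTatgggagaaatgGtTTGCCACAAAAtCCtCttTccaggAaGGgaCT
MAPK8 second exon: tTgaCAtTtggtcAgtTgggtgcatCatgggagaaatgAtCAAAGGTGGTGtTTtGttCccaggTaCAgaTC
MAPK9 first exon: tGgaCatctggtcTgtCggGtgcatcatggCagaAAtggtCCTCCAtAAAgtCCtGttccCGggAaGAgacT
MAPK9 second exon: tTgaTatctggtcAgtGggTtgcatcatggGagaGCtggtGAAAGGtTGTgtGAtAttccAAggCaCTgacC

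The exons of the MAPK8 pair were identical at 44 of 72 bases (61.1%), and those of the MAPK9 pair at 46 of 72 (63.9%). Exons in the same place were more alike between the genes, with 57 identical bases (79.2%) for the first exons and 56 (77.8%) for the second. MAPK8 transcripts also differ at the last coding exon, which starts at base 48434879 of chromosome 10 in 3 complete coding transcripts and 5 bases later in 3 others. The earlier start changes the reading frame and leaves 14 coding bases in that exon, against 143 after the later start. The junction is shown with the 5 extra bases in capitals.
earlier start: agccctctcctttagCACAGgtgcagcag
later start: agccctctcctttaggtgcagcag
An exchange of the 72-base exons keeps the length of a transcript, whereas the last-exon starts differ in length. A further complete coding transcript holds neither 72-base exon and only the last 27 bases, at chr10:48426044-48426070, of the exon after them. Which MAPK8 event the study tested is not given in the sources used here, and no exon share was computed. The values below are totals over all 16 annotated transcripts of MAPK8, 13 of MAPK9 and those of each other kinase.

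DDX24, the targeted gene (ENSG00000089737, chr14:94048291-94081245, minus strand), was counted 2010 times in the control library, 637 times in DDX24-sh1 and 765 times in DDX24-sh2. Both shRNA libraries were low, at 29.6% and 36.0% of the control after TMM scaling, the edgeR correction for library size and composition. The log2 ratios were -1.75 (95% counting interval -1.89 to -1.63) and -1.47 (-1.60 to -1.35). DDX24 shares 640 exon bases with OTUB2 on the opposite strand, which had 144, 219 and 260 counts, and reads of the pair can be told apart only if the counting used strand. Intervals of ratios of counts are Clopper-Pearson intervals, conditional on the sum of both counts. They cover counting error only, since each condition had 1 library, and without molecular identifiers the reads are not independent molecules. Differences between libraries are therefore described without a p-value, and differences between hairpins and differences between cultures cannot be told apart. In the deposited FPKM the names of the shRNA libraries are exchanged relative to the counts, and which naming is right is not known. Names here follow the counts.

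Of the 6 epithelial markers of the labelled cell type, all had counts in every library. KRT8, KRT7 and KRT18 had between 22548 and 69499 counts in each, while EPCAM had 32, 29 and 29 and CDH1 had 538, 358 and 261 in the order Control-sh, DDX24-sh1, DDX24-sh2. KRT19 went the other way, with 1001, 2251 and 2728. The lung lineage factor NKX2-1 was at 0 in every library, and the alveolar marker SFTPC had 3, 4 and 4 counts. Of the leukocyte markers, PTPRC and CD3E were at 0 throughout, and the list summed to 8, 18 and 33 counts, most of them on LCP1 (8, 17 and 28). The fibroblast list summed to 178, 306 and 241 counts, of which COL1A1 had 139, 174 and 143, LUM 27, 80 and 68, COL3A1 2, 27 and 8 and PDGFRA 10, 25 and 22. The endothelial list summed to 18, 14 and 11 counts, of which PECAM1 had 6, 12 and 7, CDH5 6, 2 and 1, KDR 5, 0 and 2 and VWF 1, 0 and 1. The epithelial list summed to 131504, 142481 and 140471. The part of these shifts in the kinase values was not tested, and in bulk RNA fewer cells of a type and less RNA per cell cannot be told apart.

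The kinases stood at widely different levels, with SRC highest and MAP3K5 lowest in every library and shifts in order between them. Levels are given as TPM, the count per base of the deposited gene length, scaled to the same sum in every library. That length is 1 value per gene and need not match the transcripts expressed. The order of genes therefore depends on it, and the intervals cover counting error only. SRC was highest, at 189 TPM in the control, 178 TPM with sh1 and 163 TPM with sh2, and was 4.03, 3.88 and 3.55 times the next kinase. PTK2 (47.0, 45.7 and 45.8 TPM) and MAP2K4 (44.8, 45.9 and 41.6 TPM) came next and differed beyond counting error only in DDX24-sh2. MAPK9, MAPK14 and MAP2K7 followed, between 19.3 and 27.3 TPM. MAPK14 was above MAPK9 and MAP2K7 in Control-sh (27.3, 25.4 and 20.8 TPM) and below both in DDX24-sh1 (20.3, 26.7 and 22.3 TPM). MAPK14 and MAPK9 were not separated in Control-sh or DDX24-sh2, and MAP2K7 and MAPK14 were not separated in DDX24-sh1. PTK2B and MAPK8 lay between 9.29 and 15.8 TPM. PTK2B was above MAPK8 by 1.26-fold in Control-sh and 1.54-fold in DDX24-sh1, and they were not separated in DDX24-sh2, where MAPK8 was 1.05 times PTK2B (interval 0.919 to 1.19). MAP3K5 was lowest in every library, at 5.98, 4.78 and 4.45 TPM.

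**Figure D1:**
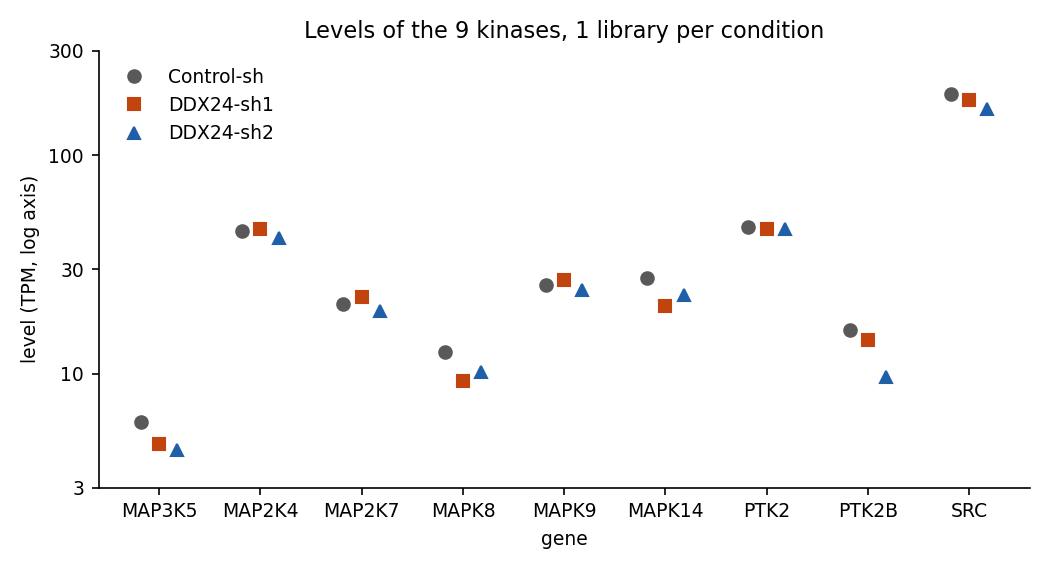
Levels of the 9 kinases in TPM on a log axis, with 1 point per library and no replicate. SRC lies at 163 to 189 TPM in the 3 libraries and MAP3K5 at 4.45 to 5.98 TPM, and the PTK2B point of DDX24-sh2 (9.69 TPM) lies below those of Control-sh (15.8 TPM) and DDX24-sh1 (14.3 TPM).

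The lowest values relative to the control, among kinases beyond counting error, were those of MAPK8 and MAPK14 in DDX24-sh1 and of PTK2B in DDX24-sh2. In DDX24-sh1 none of the 9 kinases was at least 1.5-fold higher or lower, while 7.59% of the 13984 genes were higher and 8.25% lower by that size. In DDX24-sh2 none was at least 1.5-fold higher, against 8.60% of all genes, and 1, PTK2B, was lower, against 9.51%. By the counting interval, 1 kinase (MAPK9) was above and 2 (MAPK8 and MAPK14) were below Control-sh in DDX24-sh1, where 23.6% of all genes were above and 29.5% below. In DDX24-sh2, 1 (PTK2) was above and 4 (MAPK8, MAPK14, PTK2B and SRC) were below, and the shares of all genes were 23.6% and 30.8%. The median log2 ratio of the kinases was -0.04 with DDX24-sh1 and -0.11 with DDX24-sh2, beside -0.02 and -0.03 for all genes. The median size of the log2 ratio, regardless of sign, was 0.12 and 0.11 for the kinases and 0.24 for all genes in each library. The all-gene value includes genes with few counts, while all kinases but MAP3K5 were above 10 CPM. Of all genes, 15.8% and 18.1% were 1.5-fold changed, but 9.58% and 10.5% of those above 10 CPM. The median size above that filter was not computed. These shRNA comparisons share the control library, so they are given side by side and not as repeats of each other.

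**Figure D2:**
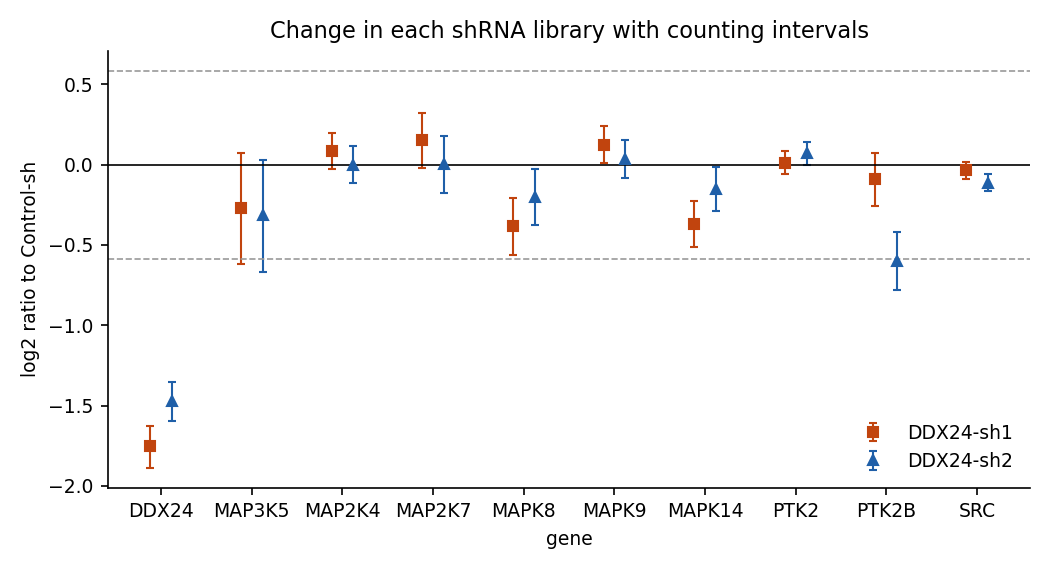
Log2 ratio to Control-sh of DDX24 and the 9 kinases in DDX24-sh1 (squares) and DDX24-sh2 (triangles), with 95% counting intervals as bars and 1.5-fold as dashed lines. DDX24 lies at -1.75 and -1.47, and among the kinases the DDX24-sh2 point of PTK2B (-0.60) lies just past the dashed line.

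At the top of the relay, MAP3K5 (ENSG00000197442, chr6:136557047-136792518, minus strand) had the fewest counts of the group. It was counted 152 times in the control library, 135 times in DDX24-sh1 and 129 times in DDX24-sh2. Both shRNA libraries were lower, with log2 ratios of -0.27 (-0.62 to 0.07) and -0.31 (-0.67 to 0.03). At this depth neither difference was beyond counting error.

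The MAP2Ks stayed close to the control. MAP2K4 (ENSG00000065559, chr17:12020824-12143830, plus strand) was counted 1228 times in the control library, 1398 times in DDX24-sh1 and 1299 times in DDX24-sh2. Its log2 ratios were 0.09 (-0.02 to 0.20) and 0.00 (-0.11 to 0.11). MAP2K7 (ENSG00000076984, chr19:7903843-7914478, plus strand) was counted 514, 612 and 544 times in the same order. Its log2 ratios were 0.15 (-0.02 to 0.32) and 0.00 (-0.18 to 0.18). For either gene the intervals of both libraries held 0. The pseudogene MAP2K4P1, 95.5% identical to MAP2K4 over 1769 bases, had 2, 3 and 1 counts. A stretch of 102 bases of MAP2K4 is 96.1% identical to SMARCA2, which had 747, 857 and 830 counts, so reads from that stretch are uncertain. An antisense gene that overlaps 438 exon bases of MAP2K7 had 0 counts in each library.

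The JNK genes moved apart. MAPK8 (ENSG00000107643, chr10:48306639-48439360, plus strand) was counted 583 times in the control library, 479 times in DDX24-sh1 and 536 times in DDX24-sh2. Both shRNA libraries were low, at 76.7% and 87.0% of the control, with log2 ratios of -0.38 (-0.56 to -0.21) and -0.20 (-0.37 to -0.03). MAPK9 (ENSG00000050748, chr5:180233143-180292099, minus strand) was counted 1090, 1274 and 1180 times. Its log2 ratios were 0.12 (0.01 to 0.24) and 0.03 (-0.09 to 0.15), so that only the DDX24-sh1 value was beyond counting error, and narrowly. The p38 gene MAPK14 (ENSG00000112062, chr6:36027677-36111236, plus strand) was counted 897, 744 and 854 times. Like MAPK8 it was lower in both shRNA libraries, at 77.4% and 90.0% of the control, with log2 ratios of -0.37 (-0.51 to -0.23) and -0.15 (-0.29 to -0.01). With scaling by total counts the DDX24-sh2 value was within counting error.

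Among the adhesion kinases, PTK2 lay near the control while PTK2B was lower in 1 shRNA library. PTK2 (ENSG00000169398, chr8:140657900-141002216, minus strand) was counted 3098 times in the control library, 3347 times in DDX24-sh1 and 3441 times in DDX24-sh2. Its log2 ratios were 0.01 (-0.06 to 0.08) and 0.07 (0.00031 to 0.14), the latter at the edge of counting error. PTK2B (ENSG00000120899, chr8:27311482-27459391, plus strand) was counted 602, 605 and 420 times. Control-sh and DDX24-sh1 were level and DDX24-sh2 was low, with log2 ratios of -0.09 (-0.26 to 0.07) and -0.60 (-0.78 to -0.42), the latter 66.1% of the control. That value lay just past 1.5-fold, and fell short of it with scaling by total counts (-0.57). PTK2B has an alternative coding exon of 126 bases, or 42 codons, at chr8:27445794-27445919, which 2 of its 4 complete coding transcripts hold and 2 skip. SRC (ENSG00000197122, chr20:37344685-37406050, plus strand), the partner of both, was counted 5877, 6146 and 5748 times. Its log2 ratios were -0.04 (-0.09 to 0.02) and -0.11 (-0.17 to -0.06), and the small DDX24-sh2 difference, on the highest counts of the group, was beyond counting error.

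The shRNA libraries also differed from each other, in a comparison that does not use the control. MAPK8 was higher in DDX24-sh2 than in DDX24-sh1 by a log2 ratio of 0.18 (0.00083 to 0.36) and MAPK14 by 0.22 (0.07 to 0.36), so 2 of 9 kinases were above, against 21.0% of all genes. The MAPK8 difference was within counting error with DESeq2 size factors and with TMM without mitochondrial genes. PTK2B was lower by -0.51 (-0.69 to -0.33) and SRC by -0.08 (-0.13 to -0.03), so 2 of 9 were below, against 23.8% of all genes. DDX24 itself was higher in DDX24-sh2 by 0.28 (0.13 to 0.44). Mitochondrial genes took 4.36% of the counts without a DDX24 hairpin, 5.13% with the first hairpin and 7.04% with the second. With those genes left out of the TMM scaling, the log2 ratios were 0.17 (-0.01 to 0.35) for MAPK8 and 0.21 for MAPK14. They were -0.52 for PTK2B and -0.09 for SRC. Any part of the mitochondrial share beyond scaling was not tested.

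Ratios between related kinases within a library do not depend on the scaling. Per base of the deposited gene length, MAPK8 stood at 0.495 of MAPK9 in the control library, 0.348 with DDX24-sh1 and 0.420 with DDX24-sh2. The changes against the control do not depend on that length. The balance of the JNK genes thus shifted toward MAPK9 by log2 -0.51 (-0.72 to -0.29) and -0.24 (-0.45 to -0.03), beyond counting error in both. PTK2 stood at 2.97, 3.19 and 4.73 times PTK2B. That ratio changed by 0.10 (-0.08 to 0.28) in DDX24-sh1 and by 0.67 (0.47 to 0.87) in DDX24-sh2, where the shift toward PTK2 was beyond counting error. MAP2K4 stood at 2.15, 2.06 and 2.15 times MAP2K7, and MAPK8 at 0.461, 0.457 and 0.445 of MAPK14. The intervals of the changes in those last pairs held 0 in both libraries.

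**Figure D3:**
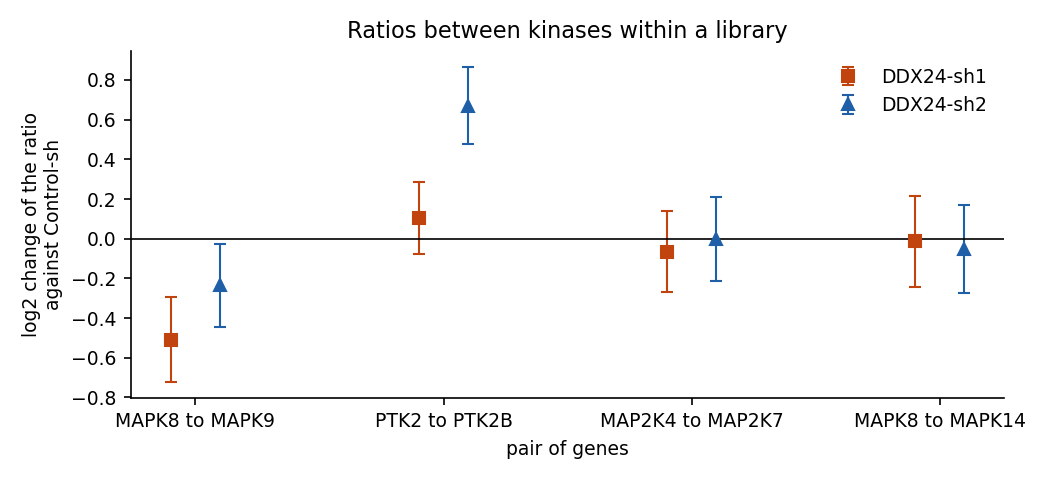
Change of the ratio between the genes of a pair against Control-sh, in log2 units, for DDX24-sh1 (squares) and DDX24-sh2 (triangles), with exact 95% counting intervals as bars. The MAPK8 to MAPK9 ratio lies below 0 in both libraries (-0.51 and -0.24), and the PTK2 to PTK2B ratio lies at 0.67 in DDX24-sh2.

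Around these kinases, 110 genes were grouped in 8 lists of relay kinases, scaffolds, phosphatases, substrates and adhesion partners, and 104 of them reached a mean of 1 CPM. In DDX24-sh1, 7 of the 104 (6.73%) were higher by 1.5-fold or more and 11 (10.6%) were lower, beside 7.59% and 8.25% of all genes. In DDX24-sh2, 2 (1.92%) were higher and 13 (12.5%) lower, beside 8.60% and 9.51%. The median log2 ratio of the 104 was -0.04 and -0.10. Counts below are given in the order Control-sh, DDX24-sh1, DDX24-sh2, and log2 ratios in the order DDX24-sh1, DDX24-sh2. For each list the highest and the lowest gene are named with values, ranked among those that reached a mean of 5 CPM by the log2 ratio of the shRNA library with the smaller change, where both ratios had the same sign. Other genes in these paragraphs were chosen after their values were seen.

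The lists with the lowest medians were the phosphatases and the substrates. Of 12 phosphatases that act on JNK or p38, 11 were above 1 CPM. None was 1.5-fold higher, and 3 (DUSP1, DUSP16 and DUSP8) were 1.5-fold lower in each shRNA library. Of all genes, 7.59% were higher and 8.25% lower by that size in DDX24-sh1, and 8.60% and 9.51% in DDX24-sh2. The list medians were -0.32 and -0.27. DUSP1, the nuclear phosphatase that inactivates p38 and JNK, was the highest of the list per length, at 1188.4, 567.0 and 549.2 TPM, with 11509, 6102 and 6060 counts. Both shRNA libraries were at about the same low value, with log2 ratios of -1.01 (-1.06 to -0.97) and -1.01 (-1.05 to -0.96). DUSP16, a JNK phosphatase, had 867, 452 and 458 counts, so that it too was low in both shRNA libraries. DUSP8 had 63, 27 and 33 counts. DUSP14 was the highest of the list by its smaller change, with counts of 615, 720 and 715 and log2 ratios of 0.13 (-0.03 to 0.29) and 0.14 (-0.02 to 0.29). DUSP10, with counts of 172, 256 and 194, was higher in DDX24-sh1 at a log2 ratio of 0.47 (0.19 to 0.76) and had 0.09 in DDX24-sh2.

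Of 18 substrates of JNK and p38, none was 1.5-fold higher in either library, beside 7.59% and 8.60% of all genes. In DDX24-sh1, 2 (MEF2A and ATF2) were 1.5-fold lower, beside 8.25% of all genes. In DDX24-sh2, 4 (MEF2A, ATF2, MEF2D and JUND) were lower by that size, beside 9.51%. The medians were -0.25 and -0.28. MEF2A, a transcription factor phosphorylated by p38, had 1120, 637 and 595 counts and log2 ratios of -0.91 (-1.06 to -0.77) and -0.99 (-1.14 to -0.85). ATF2, a transcription factor that both JNK and p38 phosphorylate, had 1278, 743 and 779 counts, with log2 ratios of -0.88 and -0.79. JUN, the substrate that gives JNK its name, had 1793, 1320 and 1570 counts and log2 ratios of -0.54 and -0.27. JUND, its relative, was lowest in DDX24-sh2, with counts of 2652, 2092 and 1389 and log2 ratios of -0.44 and -1.01. MKNK1, a kinase of the translation factor eIF4E downstream of p38, was the highest, with counts of 390, 481 and 509 and log2 ratios of 0.20 (0.01 to 0.40) and 0.30 (0.11 to 0.50).

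**Figure D4:**
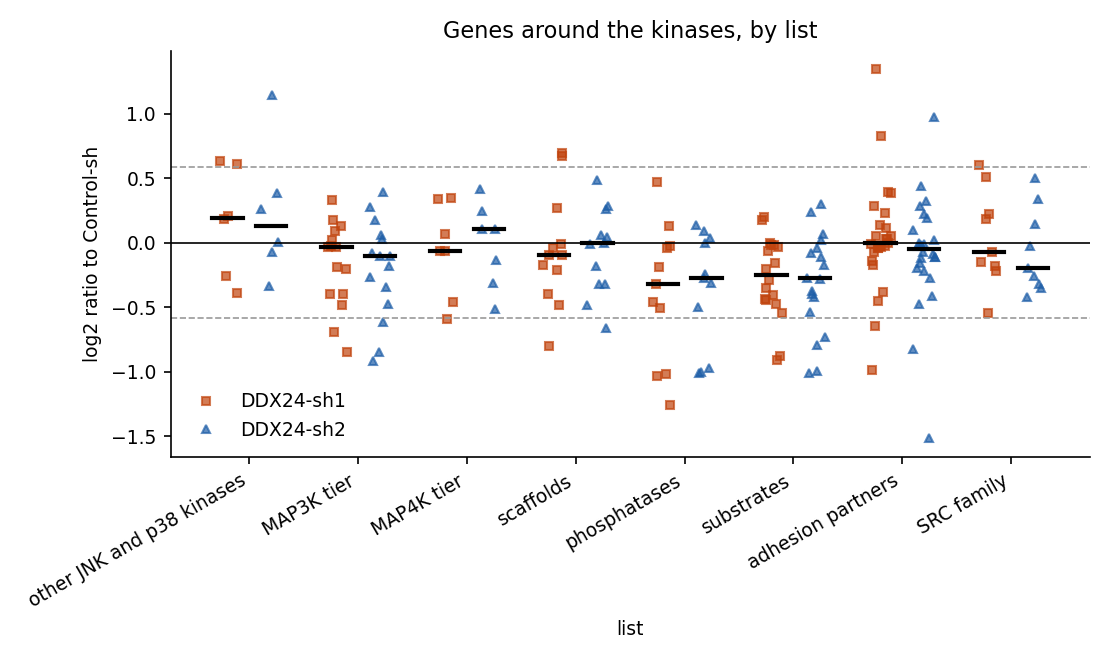
Log2 ratio to Control-sh of the 104 genes around the kinases that reached a mean of 1 CPM, by list, in DDX24-sh1 (squares) and DDX24-sh2 (triangles), with the list median as a black bar and 1.5-fold as dashed lines. Medians lie at -0.32 and -0.27 for the phosphatases and at -0.25 and -0.28 for the substrates, and no gene of either list lies above the upper dashed line.

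Upstream are the kinases that feed the relay. Of 15 other MAP3Ks, none was 1.5-fold higher in either library, beside 7.59% and 8.60% of all genes. By that size, 2 (MAP3K9 and MAP3K2) were lower in DDX24-sh1 and 3 (those and MAP3K10) in DDX24-sh2, beside 8.25% and 9.51%. The list had medians of -0.04 and -0.10, with 10 of the 15 below 0 in each library. Of the 104 genes of all lists, 69 and 66 were below 0. MAP3K9 (MLK1), a mixed lineage kinase that activates the JNK relay, had 814, 485 and 477 counts and log2 ratios of -0.84 (-1.01 to -0.68) and -0.85 (-1.02 to -0.69). MAP3K6, a relative of MAP3K5, had 173, 234 and 222 counts and log2 ratios of 0.33 (0.05 to 0.63) and 0.28 (-0.01 to 0.57). Of 7 MAP4Ks, 1 (MAP4K1, with 22, 15 and 21 counts) was lower in DDX24-sh1 and none was changed by that size in DDX24-sh2. MAP4K3 was the lowest, with counts of 1330, 1038 and 984 and log2 ratios of -0.46 (-0.58 to -0.34) and -0.51 (-0.64 to -0.40). TNIK was the highest, with counts of 121, 165 and 172 and log2 ratios of 0.34 (0.00043 to 0.70) and 0.42 (0.08 to 0.77). The MAP4K medians were -0.06 and 0.10.

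The 6 JNK and p38 kinases and MAP2Ks outside the group had medians of 0.20 and 0.13. The JNK gene MAPK10, which is mainly neuronal, had 18, 31 and 18 counts, and the p38 gene MAPK13 had 16, 14 and 40. On these few counts MAPK10 was 1.5-fold higher in DDX24-sh1 and MAPK13 in DDX24-sh2, and none of the 6 was 1.5-fold lower. MAPK11, the p38β gene, was 1.5-fold higher in DDX24-sh1, with 137, 225 and 174 counts and log2 values of 0.61 (0.30 to 0.93) and 0.26 (-0.07 to 0.60). MAP2K6, which activates p38, had 1009, 826 and 846 counts and log2 ratios of -0.39 (-0.52 to -0.25) and -0.33 (-0.47 to -0.20). Of 12 scaffolds and adaptors, 2 (MAPK8IP1 and MAPK8IP2) were 1.5-fold higher and 1 (SH3RF1) lower in DDX24-sh1, and 1 (SH3RF1) was lower in DDX24-sh2. Their medians were -0.10 and 0.00. Of all genes, 7.59% were higher and 8.25% lower by that size in DDX24-sh1, and 8.60% and 9.51% in DDX24-sh2. MAPK8IP1 (JIP1), which holds the JNK relay together, had 215, 368 and 277 counts and log2 ratios of 0.67 (0.43 to 0.93) and 0.28 (0.02 to 0.55). SH3RF1 (POSH), a scaffold that links RAC to the relay, had 667, 409 and 445 counts and log2 ratios of -0.80 (-0.99 to -0.63) and -0.66 (-0.84 to -0.49).

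On the adhesion side, 26 of 27 partners of FAK and PYK2 were above 1 CPM, with medians of 0.00 and -0.05. In DDX24-sh1, 2 (ITGA5 and ITGB3) were 1.5-fold higher and 2 (NEDD9 and PTPN12) lower, beside 7.59% and 8.25% of all genes. In DDX24-sh2, 1 (ITGB3) was higher and 2 (NEDD9 and PTPN12) were lower, beside 8.60% and 9.51%. NEDD9, a docking protein that both FAK and PYK2 bind, had 2434, 1316 and 899 counts. Its log2 ratios were -0.99 (-1.08 to -0.89) and -1.52 (-1.63 to -1.41), the lowest in this list. ITGB3, the integrin β3 subunit, had 95, 262 and 200 counts and was high in both shRNA libraries, with log2 ratios of 1.35 (1.02 to 1.72) and 0.98 (0.63 to 1.36). ITGA5, the fibronectin receptor α subunit, had 1558, 2958 and 2232 counts and log2 ratios of 0.82 and 0.44. PTPN12, a phosphatase that acts on adhesion proteins, had 3294, 2255 and 1967 counts and log2 ratios of -0.65 and -0.82. Of 13 SRC family kinases and regulators, 9 were above 1 CPM, and 1 (LYN) was 1.5-fold higher in DDX24-sh1 while none was changed by that size in DDX24-sh2. LYN, an SRC relative, had 662, 1076 and 994 counts and log2 ratios of 0.60 (0.46 to 0.74) and 0.50 (0.36 to 0.65). CBL, a ubiquitin ligase of activated tyrosine kinases, had 1428, 1312 and 1130 counts and log2 ratios of -0.22 (-0.33 to -0.11) and -0.42 (-0.53 to -0.30). The medians of this list were -0.07 and -0.20.

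Among the 104 genes, those with log2 ratios nearest to MAPK8, by the distance over the 2 ratios of 3 libraries, were PPM1A (distance 0.0981), MAP3K4 (0.105) and RB1CC1 (0.116). Those nearest to PTK2B were ITGB5 (0.153), TAOK3 (0.156) and ELK1 (0.206). ITGB5, the integrin β5 subunit, had log2 ratios of 0.00 and -0.47, and so was level with the control in DDX24-sh1 and low in DDX24-sh2, as PTK2B was. A likeness over so few values is a description of these libraries.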

How the data were processed

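RNA from A549 cells was measured in 3 libraries, 1 per condition, grouped by the sample labels. The authors deposited counts per gene without normalization and FPKM per gene, for 58735 genes. The submitters' processing notes name Bowtie2 2.0.6, TopHat2 2.0.9, Cufflinks 2.1.1 and Cuffdiff 2.1.1 without roles; the counter, strandedness and genome build are not given in the sources used here. Identifiers, starts and ends match GENCODE 29 (GRCh38) for all 58735 genes. Transcript and exon sequences were taken from it, and near-identical copies were searched with BLAST 2.17.0.

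The deposited counts were scaled by TMM in edgeR 4.0.16 under R 4.3.3, ratios were taken between log2 CPM values with a prior count of 2, and intervals came from scipy 1.17.1 in Python 3.11.15. No model was fitted. The steps were tested on simulated data. With counts labelled by library, the FPKM labelled DDX24-sh1 matched the DDX24-sh2 counts within 1% for 100% of genes with at least 50 counts, and the reverse, so FPKM served only as an alternative. A count of 3 was the floor (0.174, 0.164 and 0.168 CPM). Genes were named as members, as the targeted gene, and as the highest and lowest of each list above 5 CPM. That ranking used the smaller of a gene's 2 changes where both had 1 sign. The cell type markers and the genes nearest to MAPK8 and PTK2B were named as well. Other genes of the lists were chosen after their values were seen. The members and lists were chosen with earlier results of these data known. Alternatives were DESeq2 1.42.0 size factors, total counts, TMM without mitochondrial genes, a prior count of 0.5, the FPKM, other filters and a 2-fold threshold. Figures were drawn with matplotlib 3.10.9.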

Additional observations from a re-analysis of the deposited data

Results flagged for a closer look

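The shRNA libraries stood apart by more than counting error for 4 of 9 kinases, 2 above and 2 below, beside 21.0% and 23.8% of all genes, so the count is near the background. The log2 ratio of the second library to the first was 0.18 for MAPK8, 0.22 for MAPK14, -0.51 for PTK2B and -0.077 for SRC. With 1 library each the differences were not tested against variation between cultures. The MAPK8 value is at the edge of its interval and lay within counting error with DESeq2 size factors and with TMM without mitochondrial genes.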

How the results depend on the processing

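No paired analysis was possible because each condition has 1 library. With DESeq2 size factors, total counts, TMM without mitochondrial genes and a prior count of 0.5, the log2 ratios of all 9 kinases and of DDX24 stayed inside their counting intervals and none changed sign. The PTK2B change in DDX24-sh2 sits at the 1.5-fold threshold: the count of kinases past it fell from 1 to 0 with total counts, with a 2-fold threshold, with log2(FPKM + 0.1) under either labelling and with log2(FPKM + 1) as labelled. Beyond counting error in DDX24-sh2 there were 5 kinases, and 4 with total counts, which lost MAPK14. With the FPKM as labelled, the values of the shRNA libraries changed places: DDX24 was at -1.45 with DDX24-sh1 and -1.72 with DDX24-sh2 at log2(FPKM + 0.1), and -1.30 in DDX24-sh1 at log2(FPKM + 1); the kinase median was -0.10 in the first at either pseudocount and -0.0221 and -0.0218 in the second; MAPK8 to MAPK9 was -0.24 and -0.51; and PTK2 to PTK2B was 0.67 and 0.10. With the labels exchanged, run at log2(FPKM + 0.1) and for the pairs, DDX24 and the pair values lay inside their counting intervals. The kinase median in DDX24-sh2 was -0.0562 above 10 CPM, the filter that removes MAP3K5. Of all genes, 15.8% with DDX24-sh1 and 18.1% with DDX24-sh2 were 1.5-fold changed, 31.2% and 33.1% without a filter, and 9.58% and 10.5% above 10 CPM. Between the shRNA libraries 4 kinases differed beyond counting error; scalings added after seeing the data gave 3 with DESeq2 size factors, 5 with total counts and 3 with TMM without mitochondrial genes. Depth limited MAP3K5 most, with 129 to 152 counts.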
